A study of Mus musculus with 52 samples.

Results

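Genes that carry the Hedgehog signal from the cell surface to the nucleus were followed through RNA sequencing of mouse kidney cells with missense changes in a dynein-2 intermediate chain. They were 9, chosen by name: the receptors Ptch1 and Smo, the co-receptors Gas1, Cdon and Boc, the transcription factors Gli1, Gli2 and Gli3, and the Gli inhibitor Sufu, and all 9 were found among the 24421 gene symbols counted. The question was at what level each gene was present, whether mutant clones differed from control clones, and whether ciliated cells differed from non-ciliated cells.

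The cells were Cilia-APEX-IMCD3 cells, an immortalised mouse line from the inner medullary collecting duct that carries a ciliary APEX tag. Base editing with a cytosine editor had been used to make clones homozygous for a missense change in Wdr34 or Wdr60, the intermediate chains of dynein-2, the motor that returns cargo from the tip of the cilium. Control clones came from cells that had received the editor and the guide vector with no target sequence. There were 52 libraries, 4 technical replicates for each of 13 clone names, and a clone here means 1 clone name in 1 state. In the ciliated state there were 3 mutant clones, Wdr34 clone 1, Wdr34 clone 3 and the Wdr60 clone, and 4 controls called G7, A4, D8 and H12. The study describes its own ciliated comparison as using 3 control clones, which its text does not name. The 4 used here are therefore not the same set. In the non-ciliated state there were 2 mutant clones, 1 Wdr34 and 1 Wdr60, and 4 control clones, named AB, 1, 2 and 3. The labels give 10% serum for every library, whereas the methods of the study describe serum starvation to induce cilia. No allele is given in the labels for the Wdr34 clones. The study made 2 Wdr34 alleles and left 1 of them out of the non-ciliated cells, so the non-ciliated Wdr34 clone carried the other. Which ciliated Wdr34 clone carried which allele is not given in the labels. No Hedgehog agonist was added for sequencing. The methods count fewer control and mutant clones than the labels name, so the same clone may stand in both states under different names. The labels do not link the names, so the 13 were treated as separate clones, and comparisons between the states take no account of any sharing. By the methods, cilia and serum differed together between the states and cannot be told apart. Non-ciliated cells were sequenced before 1 of the ciliated mutants was obtained, so a difference in sequencing round cannot be told apart from state either. Each mutant line was 1 clone, and the study notes further unintended heterozygous changes in some of them.

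In vertebrates, Ptch1 sits in the ciliary membrane and keeps Smo inactive until a Hedgehog ligand binds it. Gas1, Cdon and Boc are surface proteins that help the ligand bind Ptch1. Once Smo is active, Sufu releases the Gli proteins, of which Gli2 mainly activates and Gli3 mainly represses, and Gli1 and Ptch1 are themselves transcribed in response. Return of cargo by dynein-2 is one of the steps that this relay through the cilium needs.

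The libraries held 14816218 to 28084979 counts, and levels are given as CPM, the counts scaled to library size after the trimmed mean of M values (TMM) correction. Of the renal tubule markers, Pax2, Pax8 and Cdh16 were above 80 CPM in every clone, whereas Aqp2, the water channel of principal cells, had at most 1 count in any library. Fibroblast markers summed to at most 5.67 CPM in 12 of the 13 clones and to 31.7 CPM in ciliated Wdr34 clone 3, where Dcn made up 29.2 CPM; endothelial markers summed to at most 0.186 CPM. Wdr34 was at 21.7 to 49.5 CPM and Wdr60 at 20.4 to 30.8 CPM over the clones, and gene counts cannot show a missense change. There were 6 libraries that lay far from the mean of their own clone (SD of the log2 deviation over 10193 genes above 0.25): AB library 1, non-ciliated Wdr60 library 1, ciliated Wdr60 libraries 2 and 3, G7 library 4 and A4 library 1. The fits are given with them, and without them where a result changed.

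The upstream sequences of Gas1, the member that varied most between clones, and of Smo and Sufu, the pair whose levels moved most alike, are shown for reference. RefSeq promoter entries on GRCm38.p6 were matched for 7 of the 9 genes, and the 250 bases before the start are printed 5′ to 3′ on the strand of the gene. The start is that of the promoter entry: for Ptch1, Cdon and Gli2 it lies inside the gene span given here, and for the other 4 it is the outer end of the gene. Capitals mark a CCAAT box (CCAAT or its reverse complement ATTGG) or a GC box (GGGCGG or CCGCCC).
Gas1 (chr13:60177536-60177785, minus strand): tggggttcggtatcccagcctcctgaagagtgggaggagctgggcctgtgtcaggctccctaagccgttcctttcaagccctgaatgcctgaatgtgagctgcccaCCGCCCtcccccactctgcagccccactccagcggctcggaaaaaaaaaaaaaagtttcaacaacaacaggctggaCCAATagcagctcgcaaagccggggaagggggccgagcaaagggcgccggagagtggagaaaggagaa
Smo (chr6:29735247-29735496, plus strand): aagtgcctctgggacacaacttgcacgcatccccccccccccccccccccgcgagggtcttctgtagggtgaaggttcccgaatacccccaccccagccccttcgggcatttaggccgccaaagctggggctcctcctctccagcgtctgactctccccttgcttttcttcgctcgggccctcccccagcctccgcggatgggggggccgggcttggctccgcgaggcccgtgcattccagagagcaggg
Sufu (chr19:46396646-46396895, plus strand): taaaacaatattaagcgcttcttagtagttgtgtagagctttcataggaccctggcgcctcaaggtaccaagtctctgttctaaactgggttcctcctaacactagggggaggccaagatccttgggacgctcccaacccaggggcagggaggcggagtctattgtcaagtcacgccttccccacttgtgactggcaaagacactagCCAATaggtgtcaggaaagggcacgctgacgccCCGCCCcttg
A CCAAT box was found in the windows of Gas1 and Sufu, 2 of the 7 genes, and in 33.8% of 32851 mouse promoters of this length. A GC box was found in 5 of the 7 genes and in 32.7% of all promoters. The Gli consensus TGGGTGGTC, or GACCACCCA on the other strand, was in 0 of the 7 windows and in 0.225% of all, which says only that these letters do not occur in these 250 bases.

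Compared per kilobase of exon, Smo had the highest level and Boc the lowest. Smo averaged 30.3 ± 9.52 CPM per kb (SD over 13 clones), and it was above Gas1 in 10 of the 13 clones. Gas1 averaged 24 ± 38.4 CPM per kb, with a median of 6.75, so its mean was carried by few clones and it was above Gli3 in 5 of 13. Gli3 (10.5 ± 1.88 CPM per kb), Sufu (9.89 ± 2.19) and Cdon (9.09 ± 3.18) did not separate beyond their spread, Gli3 being above Sufu in 6 clones and Sufu above Cdon in 9. Ptch1 (1.66 ± 0.687 CPM per kb) lay below Cdon in all 13 clones and above Gli2 (1.22 ± 0.633) in 8. Gli1 averaged 0.0860 CPM per kb and was below Gli2 in all 13 clones.

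Gli1 and Boc were too low to judge in the group comparisons. Gli1 (chromosome 10, 127329882 to 127341579), whose transcription is the usual readout of active Hedgehog signaling, had 0 to 29 counts per library and clone means from 0.0431 CPM in ciliated Wdr34 clone 1 to 1.19 CPM in the non-ciliated Wdr60 clone. Its exons overlap those of Arhgap9 and of an antisense RNA on the other strand by 327 bases in all, and the strand setting of the counting is not given in the sources used here. Boc (chromosome 16, 44485045 to 44558870) had at most 2 counts in any library and none in all 28 ciliated libraries, where 3 counts over the 16 control libraries would be 0.0103 CPM. Both failed the filter on low counts in the 3 group comparisons, which therefore tested 7 of the 9 genes.

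**Figure D1:**
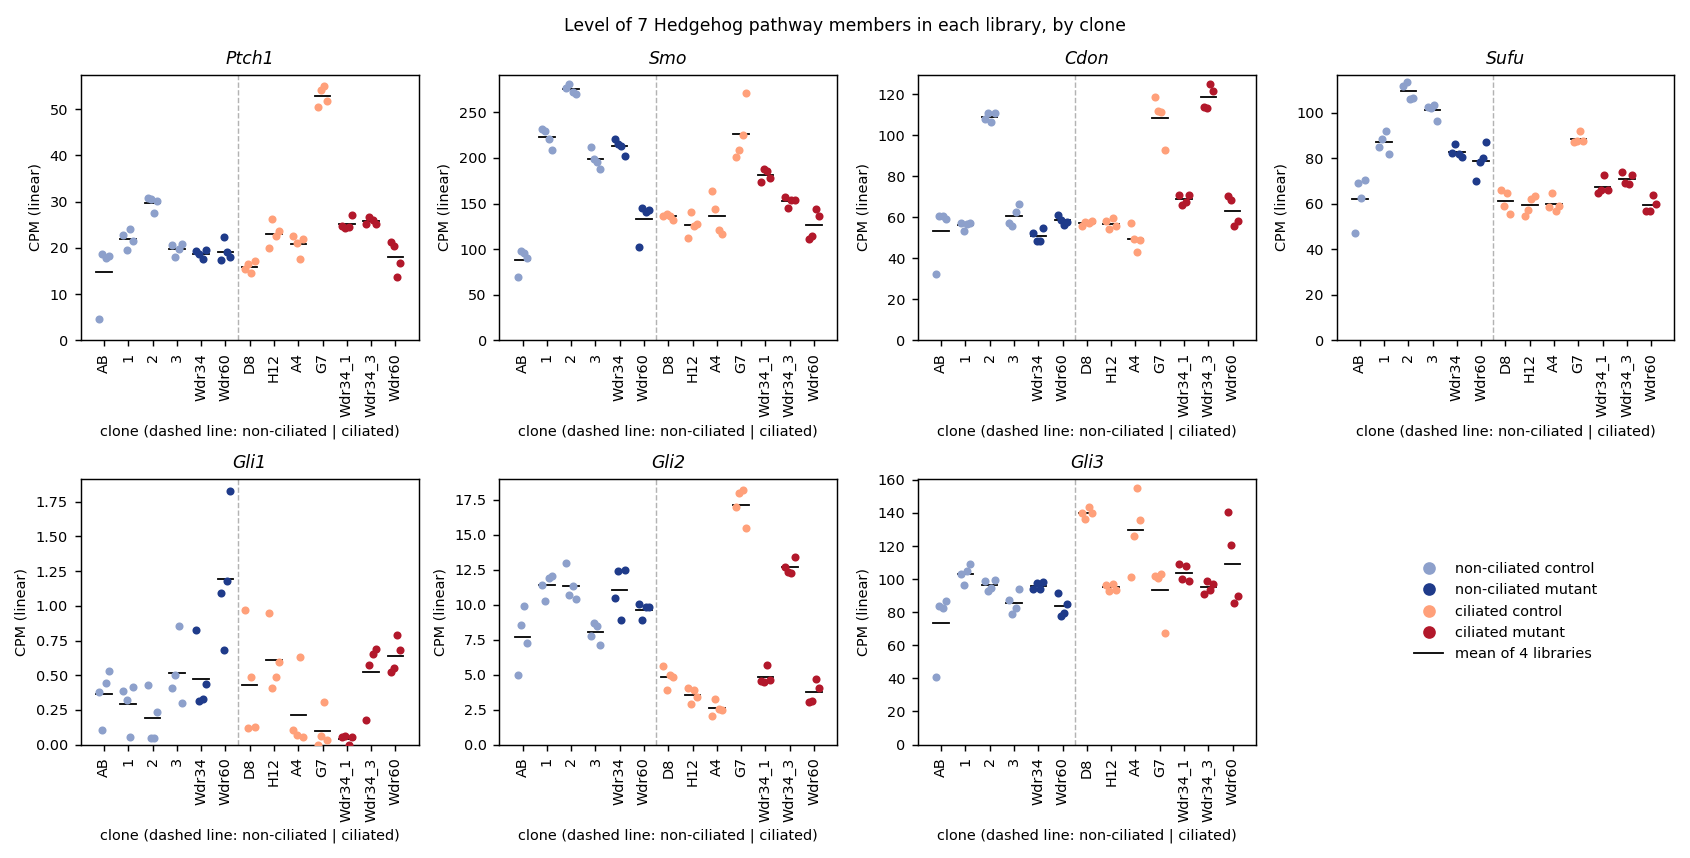
Level of 7 members in every library, in CPM on linear axes, with 1 column per clone (non-ciliated left of the dashed line, ciliated right) and a bar at the mean of the 4 libraries. Control clones 2 and G7 are the highest clones of their state for Ptch1, Smo and Sufu, and Gli1 does not exceed 1.82 CPM.

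The receptors were present in every library. Ptch1 (chromosome 13, 63508328 to 63573460), the ligand-binding receptor, had ciliated clone means among controls of 52.9 CPM in G7, 23.1 in H12, 20.8 in A4 and 15.9 in D8, against 18.0 in Wdr60, 25.2 in Wdr34 clone 1 and 25.7 in Wdr34 clone 3. The 3 mutant clones all lay inside the control range, and G7 stood above every other clone. In non-ciliated cells the controls were at 14.8 CPM in AB, 19.8 in clone 3, 21.9 in clone 1 and 29.7 in clone 2, against 18.7 in Wdr34 and 19.2 in Wdr60. Library 1 of AB was at 4.69 CPM against 17.8 to 18.6 CPM in its other 3 libraries.

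Smo (chromosome 6, 29735497 to 29761366), the transducer that Ptch1 restrains, had ciliated control means of 126 CPM in H12, 136 in D8, 136 in A4 and 227 in G7, against 126 in Wdr60, 153 in Wdr34 clone 3 and 181 in Wdr34 clone 1. The mutant range overlapped the control range throughout, with the Wdr60 clone at its lower edge. Non-ciliated controls spread further, from 88.2 CPM in AB through 199 in clone 3 and 223 in clone 1 to 275 in clone 2, and the mutants were at 133 (Wdr60) and 213 (Wdr34).

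Gas1 (chromosome 13, 60174405 to 60177535), a co-receptor anchored in the membrane, covered a far wider range than any other member. Among ciliated controls it was at 0.983 ± 0.251 CPM in D8, 20 ± 1.04 in H12, 23.4 ± 3.65 in A4 and 395 ± 27.3 in G7 (SD over 4 libraries), a 402-fold range. The ciliated mutants were at 3.72 ± 1.08 CPM in Wdr60, 61.6 ± 2.67 in Wdr34 clone 1 and 144 ± 9.73 in Wdr34 clone 3. All 3 mutant clones fell between D8 and G7, and the 4 libraries of a clone stayed close together. Non-ciliated controls ran from 1.01 ± 0.399 CPM in clone 3 through 16.5 ± 0.643 in AB and 46.4 ± 4.27 in clone 1 to 192 ± 5.55 in clone 2, a 191-fold range. The non-ciliated mutants were at 2.48 ± 0.764 CPM (Wdr60) and 17.2 ± 1.90 CPM (Wdr34), again inside the control range. The Gas1 exons share 589 bases with a long non-coding RNA on the opposite strand.

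**Figure D2:**
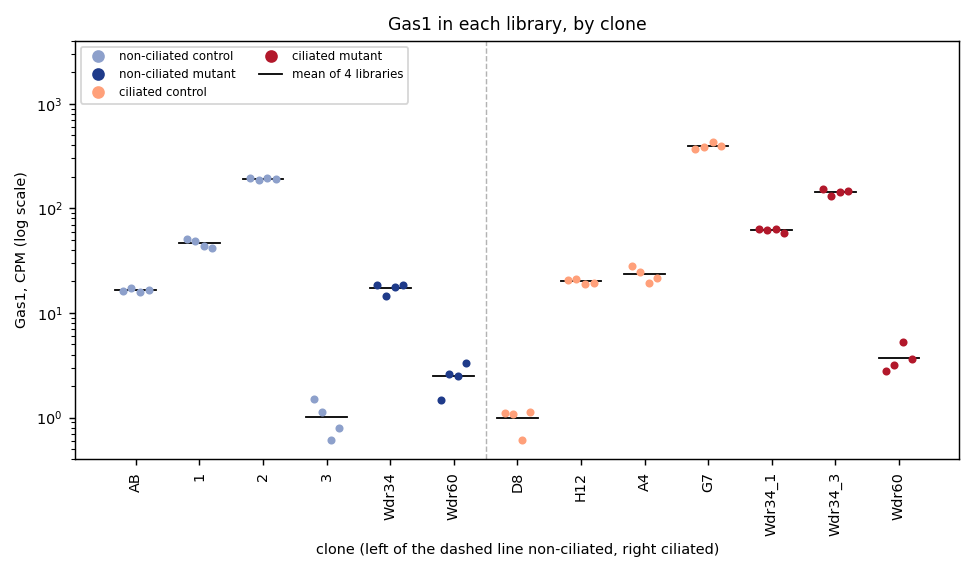
Gas1 in every library, in CPM on a log axis, by clone, with bars at clone means. Clones with 1 to 4 CPM and clones above 100 CPM occur in both states, and the mutant clones lie within the range of the control clones.

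Cdon (chromosome 9, 35421528 to 35507652), an immunoglobulin-family co-receptor, had ciliated control means of 49.6 CPM in A4, 56.9 in H12, 57.3 in D8 and 109 in G7. Of the mutants, Wdr60 was at 63.2 and Wdr34 clone 1 at 68.8, between D8 and G7, and Wdr34 clone 3 was at 119 CPM, above all controls. Non-ciliated controls were at 53.1 CPM in AB, 56.1 in clone 1, 60.5 in clone 3 and 109 in clone 2, with the mutants at 51.1 (Wdr34) and 58.6 (Wdr60). Thus 1 control clone in each state stood well above the other 3.

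Gli2 (chromosome 1, 118834061 to 119054405), the main activator, was at 2.59 CPM in A4, 3.57 in H12, 4.83 in D8 and 17.2 in G7 among ciliated controls. The mutants were at 3.73 in Wdr60, 4.83 in Wdr34 clone 1 and 12.7 in Wdr34 clone 3, so that 1 mutant and 1 control stood apart from the other 5 ciliated clones. In non-ciliated cells Gli2 was even across clones, from 7.67 to 11.4 CPM in controls and at 9.65 and 11.1 CPM in the mutants. Gli3 (chromosome 13, 15463723 to 15730026), the main repressor, varied little: 93.3 CPM in G7, 95 in H12, 130 in A4 and 140 in D8 among ciliated controls, 95.1 to 109 CPM in the ciliated mutants, 73.5 to 103 CPM in the non-ciliated controls and 83.5 and 96.0 CPM in the non-ciliated mutants.

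Sufu (chromosome 19, 46396896 to 46488804), which binds and restrains the Gli proteins, was at 59.4 CPM in H12, 59.9 in A4, 61.4 in D8 and 88.6 in G7 among ciliated controls, and at 59.3 in Wdr60, 67.5 in Wdr34 clone 1 and 71.1 in Wdr34 clone 3. Its non-ciliated controls were at 62.3 CPM in AB, 87.0 in clone 1, 101 in clone 3 and 110 in clone 2, and the mutants at 78.9 (Wdr60) and 82.8 (Wdr34). The 3 ciliated controls other than G7 lay below every non-ciliated control, and G7 lay among them.

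Differences among control clones were tested first, because they set the scale for any mutant effect. A quasi-likelihood F test in edgeR across the 4 control clones of a state, with the Benjamini-Hochberg (BH) adjustment over all genes, called a gene at an adjusted p under 0.05 and a range of at least 2-fold. In ciliated controls 4 of the 7 members that passed the filter in the group comparisons were called, beside 32.9% of all genes: Gas1 (log2 range 8.66, adjusted p = 1.7e-18), Gli2 (2.74, 1.2e-11), Ptch1 (1.75, 3.3e-11) and Cdon (1.14, 1.7e-09). Gli1 entered this fit with clone means of 0.0995 CPM in G7 to 0.609 CPM in H12, but it failed the filter in the group comparisons, so its range is given as a description with no test. In non-ciliated controls 3 of 7 were called, beside 25.6% of all genes: Gas1 (7.61, 1.4e-16), Smo (1.65, 1.5e-10) and Cdon (1.04, 3.4e-06). Without the 6 libraries that stood apart, the call of Cdon in non-ciliated controls was lost (log2 range 0.996). These tests set clones against technical replicates. On clone means, 19 of 11709 genes (0.162%) had a wider range than Gas1 among ciliated controls and 22 (0.188%) among non-ciliated controls. Gli3 was below the median gene in both states (log2 ranges of 0.61 and 0.55 against medians of 0.68 and 0.58).

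The same 2 control clones carried most of the high values. G7 was the highest of the 7 ciliated clones for 5 of the 7 members tested (Ptch1, Smo, Gas1, Gli2 and Sufu), and control clone 2 was the highest of the 6 non-ciliated clones for 5 of 7 (Ptch1, Smo, Gas1, Cdon and Sufu). Of all genes, 32.9% were called among ciliated controls and 25.6% among non-ciliated controls. How often these 2 clones were highest over all genes was not counted. Both had few transcripts of several epithelial genes: Cdh1, the adhesion protein of epithelia, was at 14.4 CPM in G7 and 4.22 CPM in clone 2 against 242 to 649 CPM in the other 11 clones, and Epcam at 13.5 and 2.86 CPM against 183 to 837 CPM. Krt8 and Krt18 were also lowest in them (26.3 and 67.5 CPM in G7, 41.0 and 112 CPM in clone 2), followed by ciliated Wdr34 clone 3 (76.7 and 148 CPM), the clone with high Cdon and Gli2. Summed over all 10 collecting duct markers, G7 had 1891 CPM, clone 2 had 1152 and Wdr34 clone 3 had 1919, against 2454 to 4369 CPM elsewhere, while Pax2 and Pax8 were highest or next to highest in G7 and clone 2. Cdh16, the kidney cadherin, was also highest of its state in both, at 841 CPM in G7 against 342 to 589 in the other ciliated clones and at 266 CPM in clone 2 against 155 to 248 in the other non-ciliated clones. What part this difference had in the levels of the members was not tested.

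**Figure D3:**
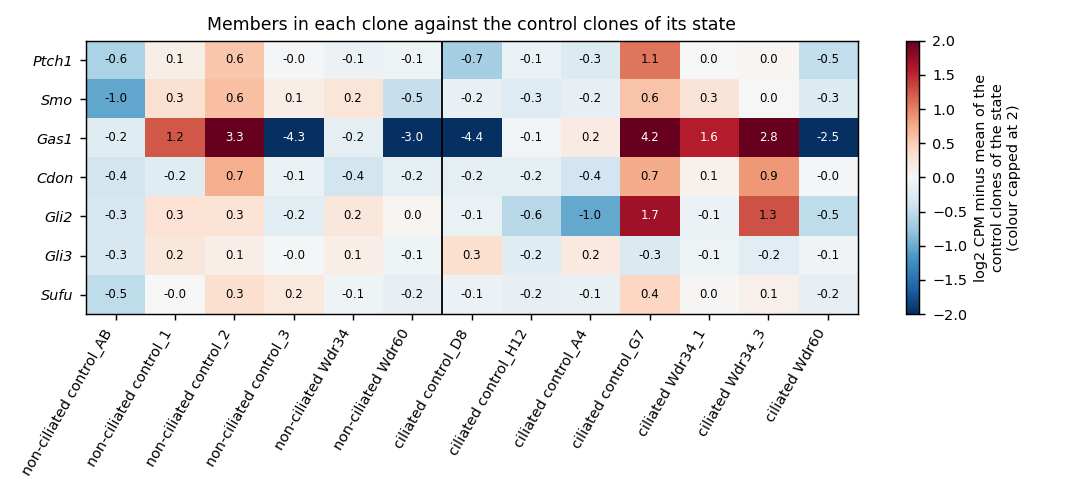
Clone mean of log2 CPM minus the mean of the 4 control clones of the same state, for 7 members (rows) in 13 clones (columns, states split by the line), with the colour capped at 2. Columns G7 and control_2 are raised for most members, and the Gas1 row holds values from -4.4 to 4.2.

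Across the 13 clones, after each state was centred on its mean, members moved together to different degrees. Pearson's r on log2 CPM was highest for Smo with Sufu (0.90) and Ptch1 with Sufu (0.86), followed by Cdon with Gli2 (0.79) and Ptch1 with Smo (0.78). Gli3 stood outside this pattern, with r between -0.31 and 0.31 against the other 6. These correlations describe 13 clones that share the scaling and may not all be separate clones. Of 11708 other genes, those most like each member were Arhgef12 (r = 0.97) and Ppt2 (0.96) for Ptch1, Zfp637 (0.93) and Tex261 (0.93) for Smo, Prkd3 (0.97) and Thap7 (0.96) for Gas1, and Gprc5b (0.97) and Rtkn2 (0.95) for Cdon. For Gli2 they were Rhobtb3 (0.95) and Far1 (0.95), for Gli3 Arhgdia (0.94) and Cdc42ep3 (0.93), and for Sufu B430212C06Rik (0.97) and Nr2c2 (0.94).

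No member was called between mutant and control clones of the ciliated state. The fit in edgeR, with libraries as samples, called 0 of 7 beside 0.644% of all 11950 genes, and DESeq2 also called 0. In edgeR 0 of 7 had an unadjusted p under 0.05, beside 2296 of all 11950 genes. The log2 fold changes were -0.31 (SE 0.21) for Ptch1, -0.04 (0.13) for Smo, -0.68 (0.87) for Gas1, 0.28 (0.17) for Cdon, -0.00 (0.38) for Gli2, -0.16 (0.10) for Gli3 and -0.04 (0.09) for Sufu. For Gas1 the direction was not settled, since the mean of log2 CPM over clones was 0.62 higher in mutants. An exact permutation test over the 7 clones (2-sided, smallest possible p = 0.0286) gave p of 0.40 to 1.0 for the 7 genes. The clone means of mutants and controls overlapped for all 7. They failed to overlap for 1.93% of all genes, so hardly any would be looked for among 7.

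The values of Gas1, Gli2 and Cdon moved with control clone G7 and with Wdr34 clone 3. Without G7, Gas1 was called higher in mutants by edgeR (log2 fold change 2.23, SE 0.69, adjusted p = 0.0290), beside 2.89% of all genes called in that fit. Gli2 was then 0.95 higher (SE 0.27, edgeR adjusted p = 0.0169) and Cdon 0.61 higher (SE 0.13, adjusted p = 0.0034), both under the 2-fold limit. Leaving out Wdr34 clone 3 instead gave -1.76 for Gas1, -0.72 for Gli2 and -0.06 for Cdon, with edgeR adjusted p of 0.357, 0.312 and 0.879.

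No member was called between non-ciliated mutants and their controls either. In edgeR 0 of 7 were called, beside 3.06% of all 12012 genes. Beside 3637 of all 12012 genes, 1 of 7 had an unadjusted p under 0.05. That gene was Gas1, at a log2 fold change of -2.70 (SE 0.94, edgeR adjusted p = 0.0527), which DESeq2 called (-2.72, adjusted p = 0.0077). It was also called without AB (-3.03), without control clone 3 (-3.12) or without the Wdr34 mutant (-4.69), and came to -1.11 (SE 0.74, edgeR adjusted p = 0.330) without control clone 2. Over clones, its exact permutation p was 0.53, where 2 against 4 clones cannot go below 0.0667. The other 6 members had log2 fold changes from -0.35 (Cdon, SE 0.17) to 0.11 (Gli2, SE 0.13). No member had clone means that failed to overlap, beside 12.9% of all genes, so few would be looked for in a list this short.

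**Figure D4:**
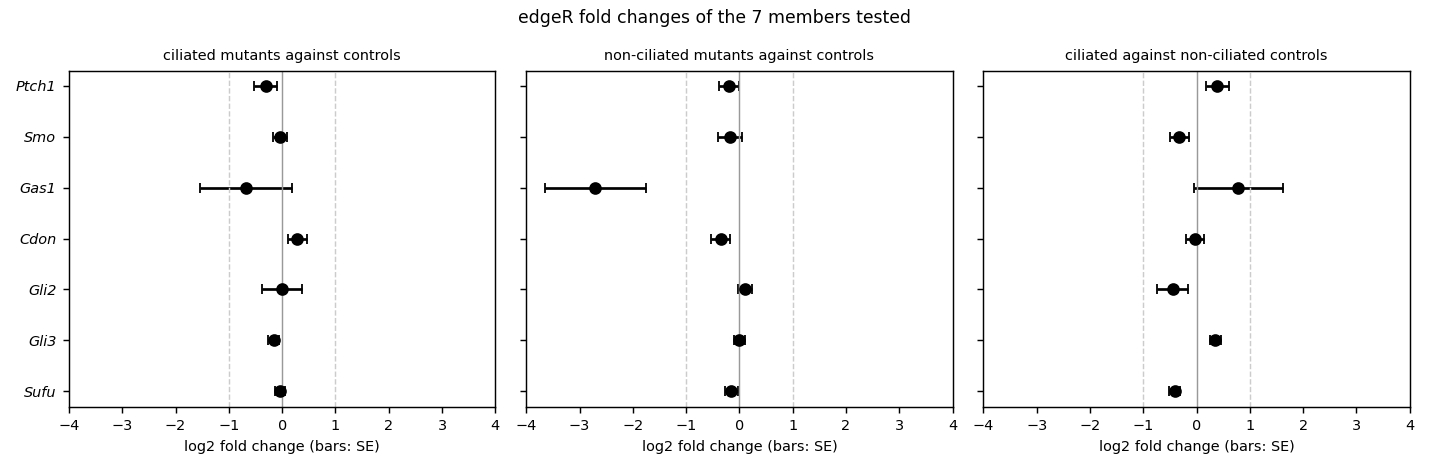
Log2 fold change from edgeR (points) with its SE (bars) for the 7 members tested in the 3 group comparisons, with dashed lines at the 2-fold limit. Only Gas1 in non-ciliated mutants lies beyond the limit, at -2.70 with an SE of 0.94, and it was not called.

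Between the states, 2 of 7 members had an edgeR adjusted p under 0.05 in the library fit, both under 2-fold, beside 60.9% of all genes. In ciliated controls Gli3 was higher (log2 fold change 0.35, SE 0.11, edgeR adjusted p = 0.0048) and Sufu lower (-0.41, SE 0.11, edgeR adjusted p = 0.0011). By the rule that also needs a 2-fold change, 0 of 7 members were called, beside 10.3% of all genes, and 0 by DESeq2. Over the 8 control clones the exact permutation p was 0.20 for Gli3 and 0.114 for Sufu, and the clone means of both overlapped between states. That test treats the 8 control names as separate clones. The other members did not separate the states either. Clone means failed to overlap for 23.1% of all genes, so few would be looked for among 7. Gli2 had a log2 fold change of -0.44 (SE 0.29, edgeR adjusted p = 0.185), and without G7 it was called lower in ciliated controls (-1.39, SE 0.15, edgeR adjusted p = 8.1e-09), in a fit that called 11.2% of all genes. Gas1 was called in opposite directions according to the clone left out: 2.38 (edgeR adjusted p = 0.0279) without control clone 2 and -2.10 (adjusted p = 0.0200) without G7. Ptch1 (0.39, SE 0.22), Smo (-0.32, SE 0.17) and Cdon (-0.03, SE 0.17) did not pass the edgeR test.

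**Figure D5:**
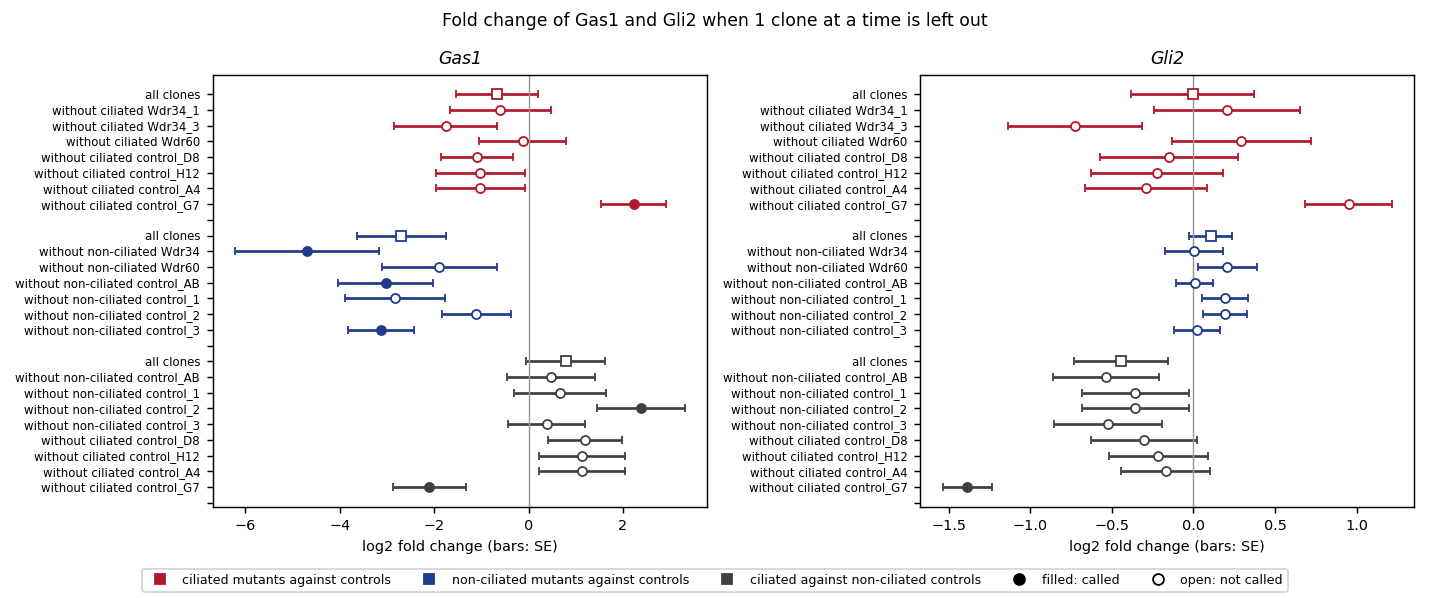
Log2 fold change and SE (bars) of Gas1 and Gli2 in edgeR with all clones (squares) and with 1 clone left out at a time (circles), filled where the gene was called. Removing G7 moves Gas1 from -0.68 to 2.23 in the ciliated comparison and Gli2 from -0.44 to -1.39 between the states.

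The mutant effect itself was then compared between the states in 1 edgeR fit over all 52 libraries. It called 0 of the 8 members tested, beside 1.19% of all genes. Beside 1809 of 12544 genes, 1 of 8 had an unadjusted p under 0.05. This was Cdon (difference of log2 fold changes 0.64, SE 0.25, edgeR adjusted p = 0.197). DESeq2 was not run for this difference.

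Single mutant clones were set against the 4 controls of their state, which compares 1 clone with 4 and cannot separate the allele from the clone. In edgeR the non-ciliated Wdr60 clone had 1 of the 7 members that passed the filter in the group comparisons called, beside 3.41% of all genes. This was Gas1, which was lower (log2 fold change -4.69, SE 1.52, adjusted p = 0.0480), although control clone 3 was lower still at 1.01 CPM. Gli1 passed the filter on low counts in this fit, but not in the fit of the Wdr34 clone against the same controls, so it entered through the clone in which it was high and its values are a description with no test. Its 4 libraries held 12 to 29 counts, at 0.681 to 1.82 CPM, and the clone mean of 1.19 CPM was above the 4 control means of 0.191 to 0.516 CPM. Gas1 lost its call without control clone 1, without control clone 2, without the 6 libraries that stood apart and with the replicate block. None of 7 members was called in the non-ciliated Wdr34 clone, beside 2.24% of all genes. There 0 of 7 had an unadjusted p under 0.05, beside 3567 of 12355 genes.

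In ciliated cells, edgeR called 0 of the 7 members that passed the filter in the group comparisons in each mutant clone. Of all genes it called 0.679% for Wdr34 clone 1, 5.8% for Wdr34 clone 3 and 1.93% for Wdr60. Gli1 also entered these fits. In Wdr34 clone 1 it had 3 counts in all 4 libraries together against 7 to 47 in the control clones. It passed the filter there through the control libraries, so its counts are a description with no test. In Wdr34 clone 1 none of the 7 had an unadjusted p under 0.05, beside 2028 of 12380 genes. In each of the other clones 1 member had such a p, beside 4182 of 12553 genes for Wdr34 clone 3 and 2733 of 12456 for Wdr60. For Wdr34 clone 3 it was Cdon, higher by 0.78 on the log2 scale (SE 0.23, edgeR adjusted p = 0.0204), under the 2-fold limit. For Wdr60 it was Gas1, at -4.88 (SE 1.82, edgeR adjusted p = 0.116), which DESeq2 called (adjusted p = 0.0018). Control D8, at 0.983 CPM, lay below the 3.72 CPM of this clone, and without D8 edgeR called Gas1. Without G7 the value was -1.99 (edgeR adjusted p = 0.149). Without G7, Wdr34 clone 3 had 3 members called higher in edgeR, Gas1 (3.26), Gli2 (1.79) and Cdon (1.11), beside 13.1% of all genes.

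A list of 50 further Hedgehog pathway genes was counted alongside, grouped by role. The ligands Shh, Ihh and Dhh had at most 10 counts in any library, and Hhip, a membrane protein that binds the ligands, at most 4. In ciliated mutants 0 of the 35 genes tested were called by edgeR, and 1, Mycn, had an adjusted p under 0.05, beside 3.17% of all genes (log2 fold change 0.98, SE 0.27, adjusted p = 0.0452). Mycn was at 20.3 CPM in Wdr34 clone 3, whereas Wdr34 clone 1 (5.89 CPM) and Wdr60 (6.20 CPM) lay inside the ciliated control range of 2.84 to 7.5 CPM. In non-ciliated mutants 3 of 36 were called by edgeR and all were lower, beside 2.57% of all genes called lower, which made up 309 of the 368 calls. They were Scube3, which helps release ligand (-3.24, SE 0.77, adjusted p = 0.0064), Lrp2, a large endocytic receptor (-4.0, SE 0.73, adjusted p = 8.9e-04), and Mycn, a growth-promoting target (-1.87, SE 0.39, adjusted p = 0.0027). All 3 had mutant clone means below every control clone, as had 708 of all 12012 genes. Scube3 was at 1.33 and 2.41 CPM against 2.52 to 56.1, Lrp2 at 4.61 and 8.15 against 11.6 to 272, and Mycn at 0.994 and 2.18 against 2.62 to 12.3. The 3 genes also differed among the control clones themselves (edgeR log2 ranges of 4.47, 4.55 and 2.23), and in each the highest control was clone 2, without which edgeR gave -1.37, -2.82 and -1.19, all still called. Without the Wdr60 clone, Scube3 (edgeR adjusted p = 0.0928) and Mycn (adjusted p = 0.0714) lost their calls. All 3 calls were lost with clones summed (edgeR adjusted p = 0.976 for each) and with the clone as a block in voomLmFit (adjusted p of 0.665, 0.362 and 0.485 with an estimated intra-clone correlation of 0.714). The exact permutation p over clones was 0.20, 0.133 and 0.0667.

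None of the 9 ciliary regulators, such as Evc, Kif7 and Gpr161, and none of the 15 kinases and Gli-processing genes was called by edgeR in any of the 3 group comparisons. Of all genes, 0.644% were called in ciliated mutants, 3.06% in non-ciliated mutants and 10.3% between the states, so few calls would be looked for in lists this short. Between the states, 20 of 36 pathway genes had an edgeR adjusted p under 0.05, against 60.9% of all genes, and 1 was called, against 10.3% of all genes. This was Ccnd1, a cyclin (log2 fold change -2.84, SE 0.66, adjusted p = 4.4e-04). Ccnd1 was at 2.18 to 85.8 CPM in ciliated controls and at 307 to 434 CPM in non-ciliated controls AB, 1 and 3, with control clone 2 at 2.92 CPM, so that the groups overlapped. The exact permutation p over clones was 0.286, and the call was lost with clones summed (edgeR adjusted p = 0.176). Its lowest levels among all 13 clones were in G7, control clone 2 and ciliated Wdr34 clone 3 (3.52 CPM), the clones with the least Krt8 and Krt18. The mutant effect on Mycn differed between the states in edgeR (difference of log2 fold changes 2.85, SE 0.48, adjusted p = 5.4e-04). Wdr34 clone 3 was the 1 ciliated mutant above its controls, and with clones summed the edgeR adjusted p was 1.0.

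The calls above rest on libraries that are technical replicates. With the 4 libraries of each clone summed, edgeR called 0 of 13243 genes in ciliated mutants (148 with an unadjusted p under 0.05), 0 of 13406 in non-ciliated mutants (582) and 660 of 13119 between the states, with 0 members in all 3.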

How the data were processed

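Paired-end reads of 52 libraries from 13 clones had been aligned by the authors to GRCm38/mm10 in R 3.4.4 and counted per gene symbol with featureCounts, and the deposited tables hold unnormalised counts. Strand and multi-mapping settings are not given in the sources used here. The authors tested with DESeq2 1.18.1. Libraries held 14816218 to 28084979 counts, where 1 count is 0.0356 CPM or more before the TMM correction. Replicate libraries are technical, so p-values over libraries measure the spread between libraries as well as clones.

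The software was edgeR 4.0.16, DESeq2 1.42.0 and limma 3.58.1 under R 4.3.3. Low genes were removed by filterByExpr, libraries were scaled by TMM, and 2-sided quasi-likelihood F tests (glmQLFit, glmQLFTest) were run. Calls needed a p under 0.05 after BH adjustment across every gene tested and at least a 2-fold difference either way, and "too low to judge" means failing the filter. Beside it, clone means of log2 CPM (prior count 1, TMM over all libraries) were compared by an exact permutation test. The scripts were tested on simulated data with known changes. The simulated libraries were drawn independently, with no difference between clones, so false calls from technical replicates could not show there. Coordinates come from RefSeq genes of GRCm38.p6 and exon lengths from GENCODE vM21 on GRCm38. The members and lists were chosen with earlier results of these data known. Pathway genes were named by a rule: in each group comparison, at most 3 called genes per role by size of the log2 fold change. Likeness is Pearson's r of clone means centred within each state, with the 2 closest genes named. No 2 libraries held identical counts. Alternatives were DESeq2, RLE size factors, other filters, clones summed or as a block, the replicate block, the adjusted p alone, and leaving out each clone or replicate number. A fit without the 6 libraries farthest from their clone was added after seeing the data.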

Additional observations from a re-analysis of the deposited data

Results flagged for a closer look

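Among the 4 control clones of a state, 6 of 16 groups had 1 clone far from the others by Dixon's test at the 95% limit. That limit passes about 1 in 20 independent groups, but members that move together do not give independent groups. The share of all genes past it was not counted, so the count does not set these members apart from other genes. In ciliated controls this clone was G7 each time: Smo was at 227 CPM against 126 to 136 in the other 3 clones, Gas1 at 395 against 0.983 to 23.4, Cdon at 109 against 49.6 to 57.3, Gli2 at 17.2 against 2.59 to 4.83 and Sufu at 88.6 against 59.4 to 61.4. In non-ciliated controls it was clone 2 for Cdon, at 109 CPM against 53.1 to 60.5. Both clones also had the lowest Cdh1 and Epcam, and the part of that difference was not tested.

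Within clones, 12 of 103 groups of 4 libraries had 1 library past the same limit, and the share over all genes was not counted here either. AB library 1 was low for Ptch1 (4.69 CPM against 17.8 to 18.6), Cdon (32.2 against 59.0 to 60.7) and Gli3 (40.7 against 82.8 to 86.8). G7 library 4 was low for Gli3 (67.5 against 101 to 103) and library 3 high for Sufu (91.9 against 87.3 to 87.8). Ciliated Wdr34 clone 1 had a high library for Ptch1 (27.1 CPM against 24.3 to 24.8), Gli2 (5.72 against 4.48 to 4.6) and Sufu (72.7 against 65.0 to 66.2). The lowest library was also apart for Smo in non-ciliated Wdr60 (103 against 140 to 145), Gas1 in D8 (0.609 against 1.08 to 1.14) and Cdon in control clone 1 (53.1 against 56.8 to 57.4), and the highest for Gli1 in A4 (0.635 against 0.0568 to 0.107).

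The mutant effect on Mycn differed between the states by 2.85 on the log2 scale (edgeR adjusted p = 5.4e-04 over libraries), and with clones summed its adjusted p was 1.0.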

How the results depend on the processing

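Of 644 alternative values for single genes, 571 kept their direction and their side of the threshold, 18 lost a call, 15 gained one and 40 changed sign. In ciliated mutants, leaving out clones or replicate numbers gave log2 fold changes from -0.51 to 0.20 for Ptch1, -0.17 to 0.20 for Smo, -1.76 to 2.23 for Gas1, -0.055 to 0.61 for Cdon, -0.72 to 0.95 for Gli2 and -0.10 to 0.13 for Sufu. In non-ciliated mutants they ran from -0.33 to 0.0058 for Ptch1, -0.57 to 0.12 for Smo and -0.11 to 0.10 for Gli3. Between states they ran from -0.10 to 0.59 for Ptch1, -2.10 to 2.38 for Gas1 and -0.35 to 0.27 for Cdon, and for Gas1 in ciliated Wdr34 clone 3 from -0.052 to 3.26. Gli2 in ciliated mutants, at -0.0049 in edgeR, was at 0.0022 with DESeq2, 0.0023 with RLE size factors, 0.0058 with at least 10 counts in every library, 0.018 with clones summed, 0.24 with the clone as a block in voomLmFit and 0.17 without the 6 libraries that stood apart. That fit, chosen after seeing the data, also gave 0.091 for Smo and 0.0037 for Sufu in ciliated mutants, and 0.088 for Ptch1 and 0.12 for Gli2 in the difference between states. The clone block in voomLmFit gave 0.49 for Gas1 in ciliated and 0.010 for Gli3 in non-ciliated mutants. Library totals in place of TMM turned the clone mean differences of Sufu in ciliated mutants (0.021), Gli3 in non-ciliated mutants (-0.0097) and Cdon between states (0.027). The causes were not tested.

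Members called without each clone or replicate number in turn ranged from 0 to 1 in ciliated mutants, 0 to 2 in non-ciliated mutants and 0 to 2 between states. The 2 in non-ciliated mutants came without the Wdr34 clone and count Gli1, which entered through the Wdr60 clone and is no test. In the single-clone comparisons, where control clones were left out in turn, they ranged from 1 to 2 in the non-ciliated Wdr60 clone (counting Gli1, which entered through that clone). In ciliated cells they ranged from 0 to 1 in Wdr34 clone 1 (Gli1, which entered through the controls), 0 to 3 in Wdr34 clone 3 and 0 to 1 in Wdr60. In non-ciliated mutants 1 member was called with DESeq2 (Gas1) and 1 with a filter of 1 count in any library (Gli1). Gli1 had failed the main filter there and was high in the Wdr60 clone, so its call is a description with no test. Between states 1 was called with that filter, Boc, and 2 by the adjusted p alone (Gli3 and Sufu). Boc had 5 counts over all non-ciliated control libraries and 0 in the ciliated ones. It entered through the group where it was seen, so this is a description with no test. DESeq2 called 1 in ciliated Wdr60. Without the libraries that stood apart, 1 was called in non-ciliated Wdr60, which was Gli1 and is likewise no test.

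With the replicate block, 1 member was called in non-ciliated mutants and 1 in the non-ciliated Wdr60 clone. It was Gli1 each time, again a description with no test. Gas1 lost its call in the non-ciliated Wdr60 clone (-4.71, edgeR adjusted p = 0.0866). Same-numbered libraries did not deviate together (mean r 0.029, from -0.47 to 0.84, in ciliated and -0.00032, from -0.56 to 0.38, in non-ciliated clones), so the numbers do not pair the libraries.

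Over all genes, the 77 calls in ciliated mutants became 129 with DESeq2, 293 with the filter of 1 count in any library, 23 with 10 counts in every library, 7 with the clone block, 379 by the adjusted p alone, 24 to 30 without a replicate number and up to 343 without a clone. The 368 in non-ciliated mutants became 565, 151, 9 and 1803 under the 2 filters, the clone block and the adjusted p alone, and at least 161 without a replicate number. The 1219 between states became 2522 with the looser filter and 7221 by the adjusted p alone. DESeq2 gave 469 calls for non-ciliated Wdr34 (277 in edgeR), 231 for ciliated Wdr34 clone 1 (84) and 393 for ciliated Wdr60 (241), the last with 54 without the libraries that stood apart. Leaving out 1 control clone gave up to 509 for non-ciliated Wdr34 and 781 for non-ciliated Wdr60 (422 with all clones), both without AB. For ciliated clones it gave up to 277 for Wdr34 clone 1 and 1632 for Wdr34 clone 3 (728), both without G7. For ciliated Wdr60 it gave up to 461, without H12.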
